A study of Mus musculus with 9 samples.

Results

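Rab GTPases are small proteins of the Ras superfamily that mark the membranes of transport vesicles and organelles. The genes described here are all 54 protein-coding genes of a deposited Argonaute (AGO) CLIP-seq matrix from mouse liver whose name starts with Rab and a digit, out of 12093 protein-coding genes and 13770 named genes in all. Of the 54, 46 encode Rab GTPases and 8 encode partners that carry a Rab name: Rab11fip1, Rab11fip2, Rab11fip3 and Rab11fip4, Rab3gap1 and Rab3gap2, Rab3ip and Rab3il1. Together they hold 341 of the 92645 unique regions of the matrix, a region being a stretch of transcript to which reads were crosslinked (a peak). A gene held between 1 and 16 of these regions, with a median of 5.5, and the median region was 70 bases wide. In CLIP-seq, RNA in contact with a protein is fixed to it by ultraviolet light and sequenced after pull-down; AGO is the protein that holds a microRNA and, guided by it, binds target transcripts. The livers came from 9 mice aged 6 weeks. The controls, labelled WT, were 5 floxed littermates (3 females and 2 males), and the 4 others were miR-122 knockout mice (KO; 1 female and 3 males). Each library came from a different mouse per the labels. No Cre line, and no cell type in which the deletion acts, is named in the sources read. miR-122 is the most abundant microRNA of hepatocytes. The comparison asks how the binding of AGO to each Rab transcript differed between livers with and without miR-122.

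A Rab protein acts as a switch. Loaded with GTP by an exchange factor (GEF), it sits on a membrane and recruits effectors such as tethers, motor proteins and adaptors, and after a GTPase-activating protein (GAP) has stimulated GTP hydrolysis it is extracted by GDP dissociation inhibitor. Each Rab marks its own step of traffic: Rab1 and Rab2 between the endoplasmic reticulum (ER) and the Golgi, Rab6 at the Golgi, Rab5 at the early endosome, Rab4, Rab11 and Rab14 in recycling, Rab7 and Rab9 at the late endosome, Rab8 and Rab10 in delivery to the plasma membrane, and Rab3 and Rab27 in regulated secretion. Hepatocytes depend on these routes for the secretion of plasma proteins and lipoproteins, for bile formation and for the turnover of receptors.

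The deposited matrix lists seed matches of 31 microRNA families per region. A seed match is a run of bases complementary to bases 2 to 8 of a microRNA or part of them, and its classes run from 8mer (longest) over 7mer to 6mer. The families that matched most Rab regions share stretches of their seeds, so that the same bases of a region are counted for more than 1 family. Their mature sequences are shown for that reason, 5′ to 3′, with the seed (bases 2 to 8) in capitals, from RefSeq on GRCm38.p6; miR-30a is added for a 3′ UTR match in Rab11a described further on.
miR-15a-5p (chr14:61632075-61632096, minus strand): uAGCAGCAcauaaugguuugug
miR-16-5p (chr3:69009918-69009939, plus strand): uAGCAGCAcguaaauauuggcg
miR-103-3p (chr2:131288103-131288125, plus strand): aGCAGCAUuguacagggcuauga
miR-107-3p (chr19:34820700-34820722, minus strand): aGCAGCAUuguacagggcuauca
miR-130a-3p (chr2:84741116-84741137, minus strand): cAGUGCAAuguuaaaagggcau
miR-19b-3p (chr14:115044358-115044380, plus strand): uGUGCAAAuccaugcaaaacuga
miR-148a-3p (chr6:51269829-51269850, minus strand): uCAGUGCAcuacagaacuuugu
miR-30a-5p (chr1:23272274-23272295, plus strand): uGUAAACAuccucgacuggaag

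The seeds of miR-15a and miR-16 are identical, as are those of miR-103 and miR-107. Bases 3 to 8 of miR-15a and bases 2 to 7 of miR-103 are the same 6 letters. Likewise 6 seed letters are shared by miR-130a and miR-19b, and 6 by miR-148a and miR-130a. Matches of the miR-15 family lay in 45 Rab regions (13.2%, against 10.1% of all regions of protein-coding genes) and matches of miR-103 in 40 (11.7% against 10.1%). In 24 regions the match positions of these families were at most 1 base apart, which is 53.3% of the former and 60.0% of the latter. The miR-130 family matched 32 Rab regions (9.38% against 5.25%) and miR-19 matched 22 (6.45% against 3.50%), with 9 regions in common at that distance (28.1% and 40.9%). The miR-148 family matched 17 regions, of which 14 (82.4%) also held a miR-130 match at that distance. miR-122-5p matched 23 Rab regions (6.74%), against 9.33% of the regions of protein-coding genes, and 65 Rab regions (19.1% against 16.3%) held no match of any listed family. These shares are a description of which letters the regions hold.

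The miR-122 matches lay in 19 of the 54 genes. The longest match was an 8mer or 7mer in 11 regions and a 6mer in 12. A further class that the matrix marks with "-B", which no source read here defines, occurred in 5 regions, 1 of which (in Rab3a) also held a regular 7mer. Of the 341 regions, 198 (58.1%) were annotated to 3′ UTRs, 91 (26.7%) to coding sequence (CDS), 26 to 5′ UTRs and 19 to introns. Over all regions of protein-coding genes, 37.7% were in 3′ UTRs and 41.9% in CDS.

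Library totals ran from 445912 to 1170130 counts, and all levels below are counts divided by the library total and scaled to CPM, as mean ± SD over mice. CPM of different genes are not comparable as levels, because genes differ in length and number of regions. Reads at the miR-122 locus itself (Mir122a) numbered 270 to 447 in the controls and 3 to 52 in the KO libraries. Of 10 hepatocyte markers, 7 were lower and 1 (Ttr) was higher in KO, and their summed level ran from 22350 to 29779 CPM in controls and from 11120 to 18011 CPM in KO. Of 20 neuron markers, 19 were in the matrix and 16 could be tested. Of these, Syn1, Rbfox1, Gria2 and Celf4 had no control read and passed the filter only through the KO libraries, and the 12 others were all higher in KO. Their sum was 44.3 to 58.1 CPM in controls and 2184, 2469, 2856 and 9089 CPM in KO replicates 1 to 4. Stmn2 and Nefm too were at 0 in every control. KO replicate 4 stood apart, at 3.63 times the average of KO replicates 1 to 3 for this list. Among the 7 stellate cell markers 4 were higher in KO, and their sum was 637 to 799 CPM in controls and 1089 to 1973 CPM in KO. The summed level was higher in every KO library than in every control for the astrocyte list (328 to 523 against 685 to 1476 CPM, with 2 of 5 markers at 0 in all controls), the cholangiocyte list (13.2 to 36.2 against 73.1 to 112 CPM) and the lymphocyte list (66.0 to 109 against 134 to 262 CPM). The astrocyte sum was mostly Slc1a2 (401 and 764 CPM), whose log2 of 0.94 did not pass (edgeR adjusted p = 0.0753). Slc1a2 and Gja1 (48.0 and 99.6 CPM) had reads in every control liver. The cholangiocyte sum covers 3 of 5 listed genes and was mostly Spp1 (11.2 and 79.9 CPM), while Krt7 had 0.962 and 3.05 CPM and Sox9 7.23 and 3.74 CPM. The sum overlapped between groups for Kupffer cell markers (256 to 344 against 274 to 538 CPM) and endothelial markers (485 to 617 against 313 to 610 CPM). In such bulk libraries less RNA per cell, fewer cells of a type and less AGO on the same RNA cannot be told apart.

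The Rab genes together carried more AGO-bound reads in KO than in control liver. Their sum was 2200, 1882, 2218, 2215 and 1971 CPM in control replicates 1 to 5 and 2929, 2859, 3192 and 3416 CPM in KO replicates 1 to 4. Every KO library lay above every control, and the means were 2097 ± 159 (SD, n = 5) and 3099 ± 255 CPM (SD, n = 4), a ratio of 1.48. The regions that hold a miR-122 match summed to 590.2 ± 76.2 CPM in controls (462 to 649.7) and 446 ± 57.2 CPM in KO (380.4 to 515), which overlapped, and 363 CPM of the control mean lay in a single region of Rab1. Without the match regions the Rab sum went from 1507 ± 131 to 2653 ± 292 CPM, a ratio of 1.76. The same sum over all protein-coding genes went from 631544 ± 16598 to 714249 ± 21534 CPM, a ratio of 1.13. Rab3b, Rab3c, Rab6b, Rab9b and Rab39b, of which Rab3b, Rab3c, Rab6b and Rab39b are mainly known from neurons, summed to at most 1.71 CPM in any control. In KO replicates 1 to 4 the same sum was 111, 149, 194 and 509 CPM. Without these 5 genes, which were singled out after their values were seen, the family sum was 2096 ± 159 CPM in controls and 2858 ± 123 CPM in KO, a ratio of 1.36.

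Gene by gene, 41 of the 54 passed the filter on low counts and were tested with edgeR's quasi-likelihood test over 8843 genes, with sex as a term. At an adjusted p under 0.05, 2 Rab genes were lower and 15 were higher in KO, and 24 did not pass. Over all genes tested, 23.3% were lower and 21.9% were higher. Lower calls thus made up 4.88% of the Rab genes tested and higher calls 36.6%. The median log2 fold change, KO over control, was 0.51 for the Rab genes and 0.07 for all genes tested. The difference between these medians was also 0.44 with upper quartile scaling, with DESeq2 and with TMM computed on regions that lack any miR-122 match, summed per gene. With that last scaling the median of all genes was -0.17 and the share of higher among all called genes 34.5%, in place of 48.5%. The difference between the medians was 0.29 with 3′ UTR regions alone, 0.31 with no filter on low counts and 0.51 with the replicate number as a block. Leaving out 1 library gave 0.36 to 0.48. Setting Rab6b at its bound in place of its fitted value left the median of the Rab genes at 0.51. A gene without reads in the controls could pass the filter only through the KO libraries, so its direction was fixed by that. Rab2b, Rab3c, Rab27b and Rab33b had too few control reads to pass it without the KO libraries. Their direction and p-values therefore lean on the filter. The 13 genes that were not tested for lack of reads were Rab13, Rab17, Rab20, Rab24, Rab28, Rab31, Rab39b, Rab3b, Rab3d, Rab3il1, Rab4a, Rab7l1 and Rab9b.

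**Figure D1:**
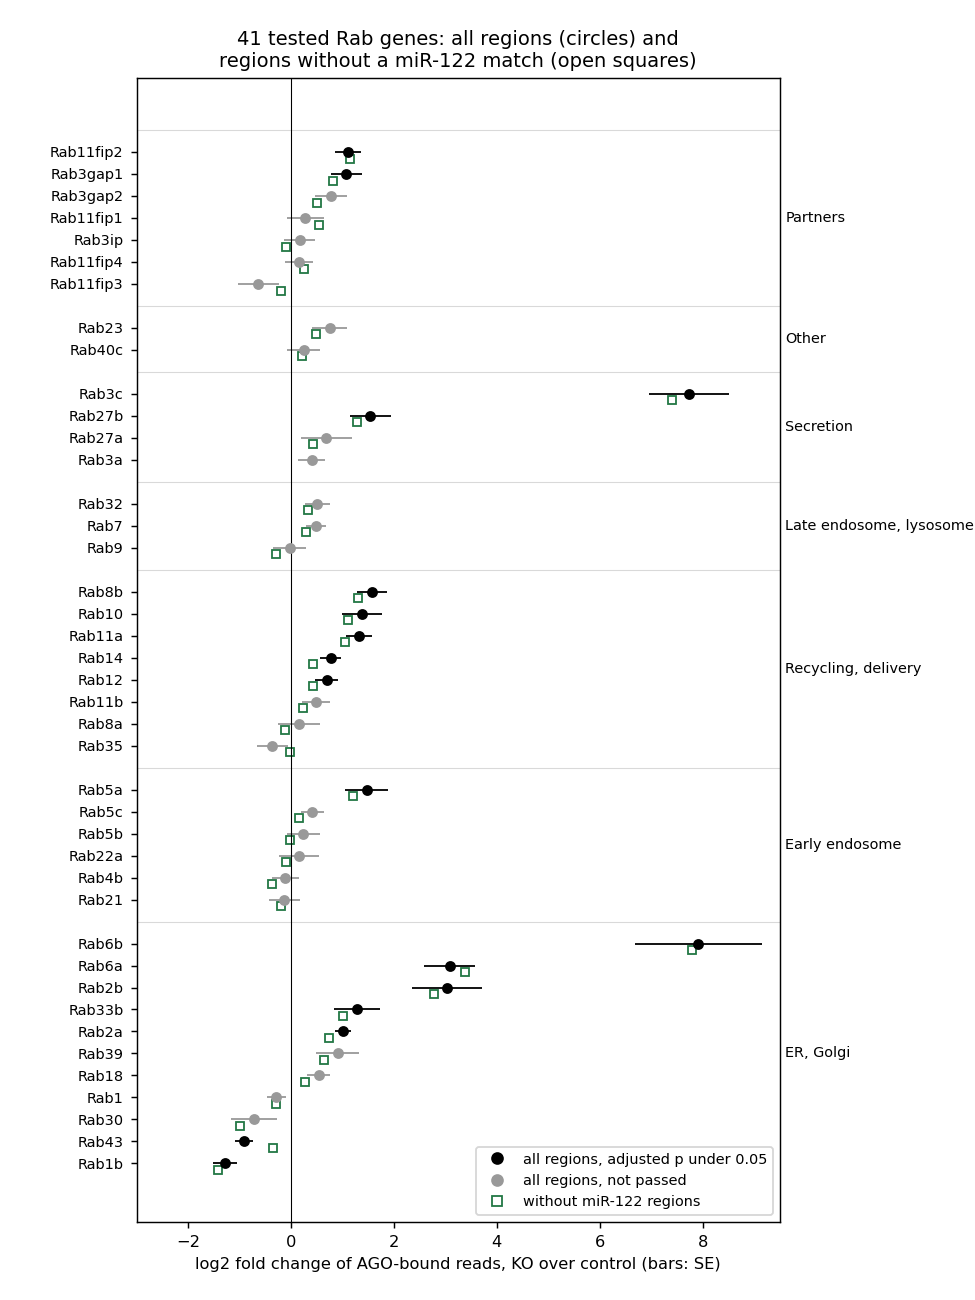
Log2 fold change of AGO-bound reads, KO over control, of the 41 tested Rab genes by role; circles are all regions of a gene with the SE as a bar (black: adjusted p under 0.05), open squares the same gene without its miR-122 match regions. Rab43 and Rab1b are the genes called lower, and Rab6b and Rab3c, with 0 and 2 reads in all controls together, lie far to the right, where the fitted fold depends on the prior count.

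The Rabs of the ER and Golgi moved in both directions. Of 12 genes, 11 were tested, 2 were lower (18.2%) and 5 were higher (45.5%), beside 23.3% and 21.9% of all genes tested. Rab43, a Golgi Rab of ER-to-Golgi and retrograde transport, had 200, 157, 225, 172 and 133 CPM in control replicates 1 to 5 and 97.4, 111, 109 and 60.4 CPM in KO replicates 1 to 4. No KO value reached the lowest control, and the log2 fold change was -0.91 ± 0.18 (SE; edgeR adjusted p = 0.00146). Rab1b, which works with Rab1 (Rab1a in RefSeq) in the step from ER to Golgi, had 66.2, 96.4, 97.6, 53.0 and 64.4 CPM in controls and 36.8, 25.3, 29.0 and 24.5 CPM in KO. Here too the groups did not overlap, and the log2 fold change was -1.29 ± 0.23 (edgeR adjusted p = 0.000776; -0.77 and 0.169 with 3′ UTR regions alone).

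Rab1, the closest relative of Rab1b, had 545, 460, 488, 640 and 745 CPM in controls and 650, 515, 567 and 349 CPM in KO. The groups overlapped, and the log2 fold change of -0.28 ± 0.19 did not pass (edgeR adjusted p = 0.253). It passed as lower when TMM factors were taken from regions without a miR-122 match (log2 -0.52, edgeR adjusted p = 0.0435). It also did when KO replicate 1, the only KO female, was left out (-0.63, edgeR adjusted p = 0.0289). Rab30, a Golgi Rab, had 69.1, 62.8, 61.6, 35.0 and 13.4 CPM in controls and 17.9, 39.0, 20.5 and 18.0 CPM in KO. Its control values spread over a wide range that contains all KO values, and -0.72 ± 0.44 did not pass (edgeR adjusted p = 0.209), though it did without control replicate 5 (-1.16, edgeR adjusted p = 0.0462) and without the sex term (-1.06, 0.0478). Rab18, a Rab of the ER and of lipid droplets, had 74.7, 49.3, 79.2, 97.4 and 63.1 CPM in controls and 99.4, 114, 128 and 140.4 CPM in KO without overlap, and its log2 of 0.54 ± 0.22 missed the threshold (edgeR adjusted p = 0.0649; it passed with upper quartile scaling, 0.0293, and without the sex term, 0.0240).

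Higher in KO were Rab2a, Rab2b, Rab6a, Rab6b and Rab33b. Rab2a, which acts between the ER and the Golgi and on autophagosomes, had 77.5, 71.8, 76.5, 62.4 and 57.7 CPM in controls and 156, 131, 154 and 114 CPM in KO. Every KO mouse was above every control, and the log2 fold change was 1.01 ± 0.16 (edgeR adjusted p = 0.000278). KO replicate 4 was the lowest of the KO libraries for Rab2a. Its relative Rab2b was scarce, with 0, 4.49, 0.879, 3.42 and 0 CPM in controls, and had 10.9, 13.6, 19.6 and 27.8 CPM in KO (log2 3.04 ± 0.68, edgeR adjusted p = 0.00328). Rab2b passed the filter only through the KO libraries.

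Rab6a, which directs transport from and to the Golgi, had 19.7, 6.73, 23.7, 21.4 and 18.8 CPM in controls and 122.2, 131, 125 and 369 CPM in KO. Its log2 fold change was 3.08 ± 0.49 (edgeR adjusted p = 0.000359) and 2.50 without KO replicate 4. Its isoform Rab6b, which is typical of neurons, had no read in any control and 12, 31, 44 and 65 reads in KO replicates 1 to 4, which are 11.9, 30.2, 41.1 and 106 CPM. That is at least 66.4-fold higher against a floor of 3 counts over the control group (0.713 CPM). Both isoforms were highest in the KO library with the highest neuron marker sum: KO replicate 4 stood at 2.93 times the average of KO replicates 1 to 3 for Rab6a and at 3.83 times for Rab6b, beside 3.63 times for the neuron list. The part of neuron RNA in these results was not tested. Rab39b, another Rab of the brain, had no control read and at least 14.5-fold more in KO, with a KO replicate 4 ratio of 3.73. Rab33b, a Golgi Rab with a role in autophagy, went from 6.94 ± 3.99 to 20.6 ± 8.06 CPM with overlapping groups (log2 1.28 ± 0.45, edgeR adjusted p = 0.0360). The call ended without control replicate 1, without control replicate 5 or with TMM factors from regions without a miR-122 match (log2 1.04, edgeR adjusted p = 0.0825).

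Of 10 early endosome Rabs, 6 were tested, and 1, Rab5a, was called, as higher (16.7%, beside 21.9% of all genes tested). Rab5a, which drives fusion of early endosomes, had 14.1, 13.5, 11.4, 11.1 and 4.03 CPM in controls and 22.9, 27.3, 30.8 and 42.5 CPM in KO (log2 1.47 ± 0.42, edgeR adjusted p = 0.0131). Its call ended without control replicate 4 (edgeR adjusted p = 0.0510), without control replicate 5 (0.0535) or with 3′ UTR regions alone (log2 1.38, 0.0683). The other two Rab5 genes did not pass: Rab5c had 42.2 ± 8.12 CPM in controls and 63.0 ± 10.3 CPM in KO (log2 0.42 ± 0.23), and Rab5b had 23.4 ± 8.05 and 35.2 ± 10.5 CPM (log2 0.24 ± 0.32). The remaining tested genes, Rab4b, Rab21 and Rab22a, had log2 fold changes between -0.13 and 0.16. Among the untested genes Rab17, an epithelial Rab of transcytosis, had 13.3 ± 9.89 CPM in controls and 4.19 ± 1.30 CPM in KO with overlap.

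Rabs of recycling and delivery to the plasma membrane moved in 1 direction where they were called. Of 9 genes 8 were tested and 5 were higher in KO (62.5%, beside 21.9% of all genes tested), namely Rab14, Rab10, Rab11a, Rab8b and Rab12. With the miR-122 match regions left out, a test described further on, 3 of the 8 were higher (37.5%, beside 17.1% of all genes). Rab14, which works between the trans-Golgi network and recycling endosomes, had 228, 209, 190, 206 and 173 CPM in controls and 332, 325, 369 and 405 CPM in KO. The groups did not overlap (log2 0.77 ± 0.20, edgeR adjusted p = 0.00714). With 3′ UTR regions alone the log2 was 0.39 and did not pass (edgeR adjusted p = 0.216). Rab11a, the central Rab of the recycling endosome, had 24.0, 29.2, 24.6, 41.9 and 17.5 CPM in controls and 72.5, 69.2, 93.4 and 70.2 CPM in KO. The lowest KO mouse had well over the highest control value, and the log2 fold change was 1.32 ± 0.25 (edgeR adjusted p = 0.00110). Rab11b, its close relative, had 28.2 ± 8.03 and 40.5 ± 10.7 CPM, and its log2 of 0.49 ± 0.27 did not pass (edgeR adjusted p = 0.161).

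Rab8b, of polarised delivery to the cell surface, had 22.6, 31.4, 22.0, 18.8 and 10.7 CPM in controls and 62.6, 51.7, 84.1 and 35.9 CPM in KO, again without overlap (log2 1.57 ± 0.29, edgeR adjusted p = 0.00106). Its relative Rab8a had 32.2 ± 16.1 CPM in controls and 32.8 ± 7.78 CPM in KO and a log2 of 0.15 ± 0.41, which did not pass. The difference between the Rab8b and Rab8a changes was not tested. KO replicate 4 had 0.543 times the average of KO replicates 1 to 3 for Rab8b, beside 0.605 times for the stellate cell list, 0.552 for Kupffer cells, 0.525 for endothelial cells and 0.597 for lymphocytes; the part of these cells was not tested. Rab12, of transport from recycling endosomes to lysosomes, had 50.7, 42.6, 40.5, 56.4 and 26.8 CPM in controls and 80.5, 80.9, 80.3 and 50.6 CPM in KO. KO replicate 4 fell within the control range, the log2 was 0.69 ± 0.22 (edgeR adjusted p = 0.0227), and the call ended without control replicate 3, control replicate 5 or KO replicate 1. It also ended with TMM factors from regions without a miR-122 match (log2 0.45, edgeR adjusted p = 0.124) and with 3′ UTR regions alone (0.58, 0.183).

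Rab10, which delivers cargo such as glucose transporters to the surface, had 77.5, 74.0, 50.1, 76.9 and 51.0 CPM in controls and 139, 118, 163 and 318 CPM in KO. All KO libraries were above all controls (log2 1.38 ± 0.39, edgeR adjusted p = 0.0120), and the log2 was 0.91 without KO replicate 4, which stood at 2.28 times the other KO libraries. The call ended without control replicate 5 (edgeR adjusted p = 0.0609). Of its 16 regions, 11 lie over Rab10os, an antisense gene, and whether the counting used strand is not given, so their reads may belong to either. Rab35, of fast endosomal recycling, had 35.2, 35.9, 51.9, 31.6 and 41.6 CPM in controls and 21.9, 48.7, 43.9 and 24.5 CPM in KO, with overlap (log2 -0.36 ± 0.30) and did not pass as a whole gene, though it did with 3′ UTR regions alone (-1.40, edgeR adjusted p = 0.0311).

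**Figure D2:**
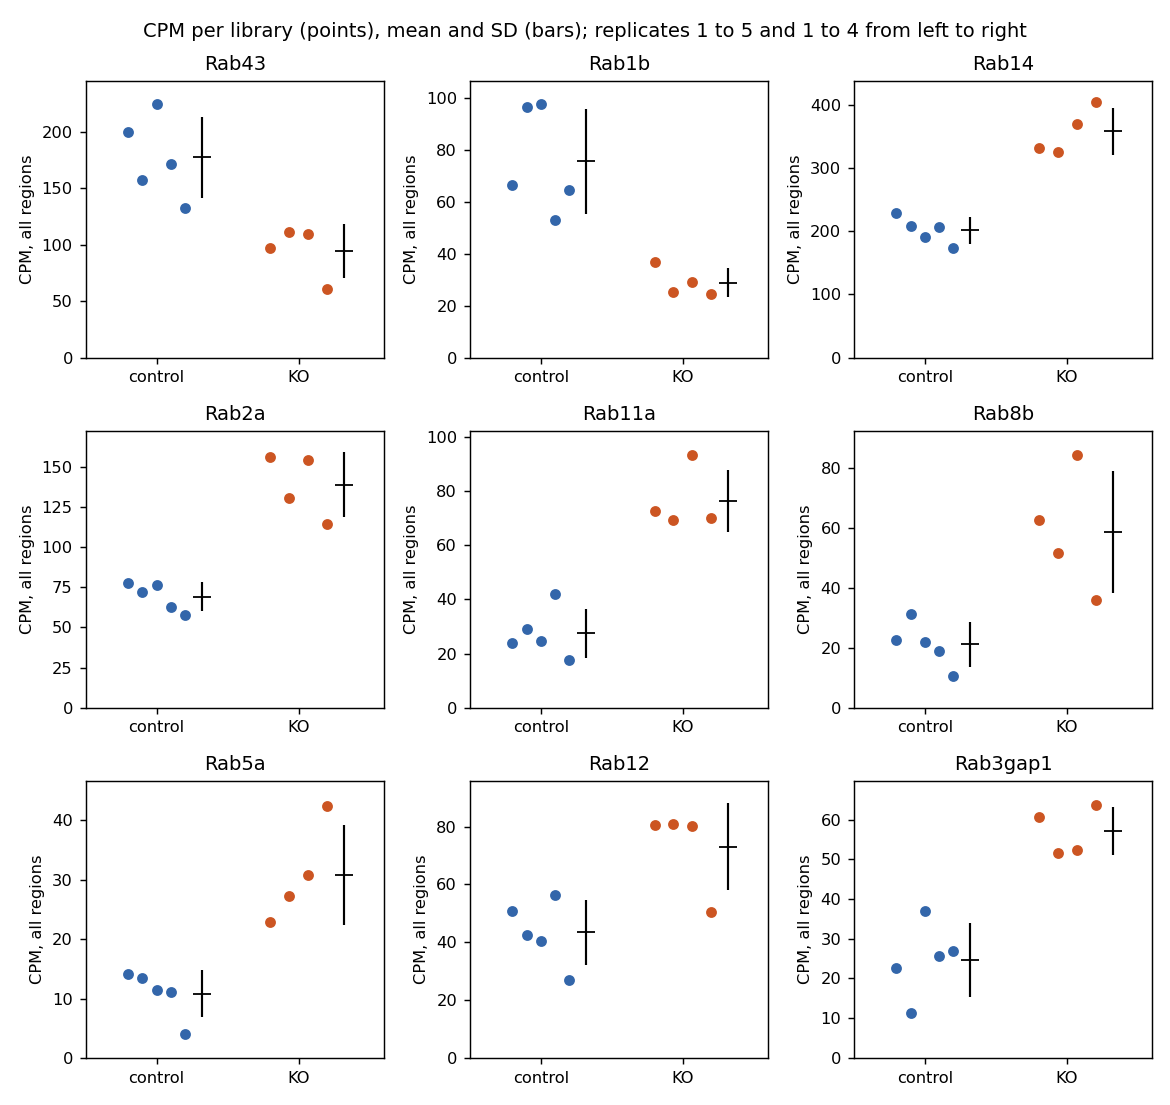
CPM over all regions in each library (points) with the mean and SD (bars) for 9 Rab genes, controls in blue (n = 5) and KO in orange (n = 4). Rab43 and Rab1b lie lower in all KO libraries than in any control, Rab14, Rab2a, Rab11a, Rab8b, Rab5a and Rab3gap1 higher, and for Rab12 KO replicate 4 (50.6 CPM) falls within the control range.

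Of 6 late endosome and lysosome Rabs 3 were tested, and none passed with edgeR or DESeq2, with 1 at an unadjusted edgeR p under 0.05. That gene was Rab7, the main Rab of late endosomes, with 50.7, 38.1, 57.2, 55.5 and 52.4 CPM in controls and 83.5, 74.1, 77.5 and 71.8 CPM in KO. The groups did not overlap, but the log2 of 0.49 ± 0.19 stayed above the threshold (edgeR adjusted p = 0.0535) and passed with upper quartile scaling (0.0318) or without the sex term (0.0285). Rab32, of lysosome-related organelles and mitochondria, had 59.2, 33.6, 80.9, 65.0 and 49.7 CPM in controls and 115, 75.0, 97.1 and 52.2 CPM in KO, with overlap (log2 0.51 ± 0.24, not passed). Rab9, of transport from endosomes to the Golgi, had a log2 of -0.03 ± 0.33. Its paralogue Rab9b had no control read. Its KO values were 9.94, 8.77, 15.9 and 45.7 CPM, at least 28.2-fold above the floor of the control group, and KO replicate 4 stood at 3.97 times the other KO libraries.

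Of 6 Rabs of regulated secretion 4 were tested and 2, Rab3c and Rab27b, were higher. Rab3c, a synaptic vesicle Rab, had 0, 0, 0, 2 and 0 reads in controls and 81, 104, 139 and 200 reads in KO, or 80.5, 101, 130 and 327 CPM. The ratio of its rates was 297, with a 95% exact binomial interval of 81.7 to 2456 that covers counting error only. Its fitted log2, which depends on the prior count, was 7.73 ± 0.77 (edgeR adjusted p = 1.38e-05) and 7.14 without KO replicate 4, which stood at 3.14 times the other KO libraries. Rab3a, the main synaptic isoform, was present in control liver. It had 18.3, 26.9, 28.1, 32.5 and 26.8 CPM in controls and 45.7, 28.3, 50.4 and 26.1 CPM in KO, which overlapped (log2 0.40 ± 0.27, edgeR adjusted p = 0.248). KO replicate 4, the library with the highest neuron marker sum, was the lowest of the KO libraries for Rab3a.

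Rab3b had 1 read in all controls and 12 in KO (ratio 13.6, 95% interval 2.01 to 581, counting error only). Rab3d, the isoform of exocrine granules, had 5.64, 6.73, 7.92, 8.55 and 4.03 CPM in controls and 1.99, 0.975, 0 and 0 CPM in KO. All KO libraries were below all controls, but with 3 KO reads against 29 control reads it was too scarce to be tested (ratio 0.117, 95% interval 0.0228 to 0.378, counting error only). The 1 region of Rab3d lies in CDS and holds a "-B" match. Rab27b, which docks secretory vesicles at the membrane, had 4.23, 4.49, 10.6, 7.69 and 4.03 CPM in controls and 18.9, 29.2, 18.7 and 16.3 CPM in KO (log2 1.54 ± 0.39, edgeR adjusted p = 0.00668). Rab27a, its relative, had 9.41 ± 5.02 and 19.3 ± 8.64 CPM with overlap (log2 0.69 ± 0.49) and did not pass.

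**Figure D3:**
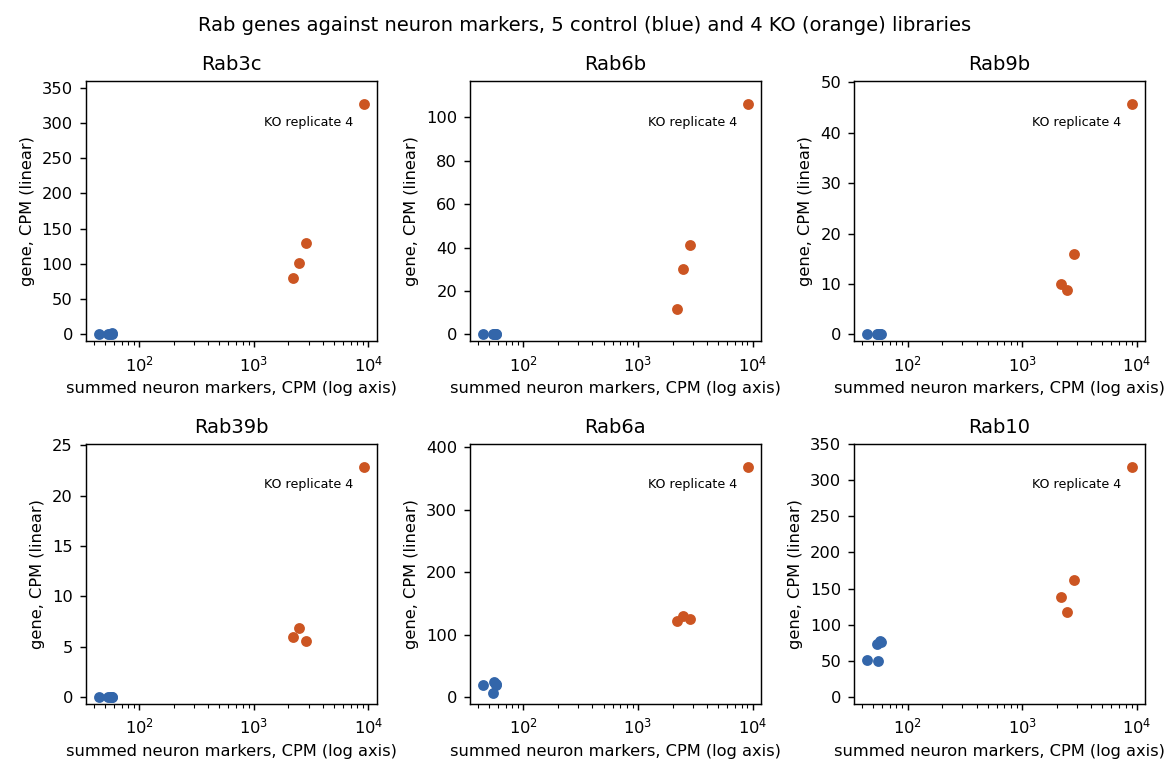
CPM of 6 Rab genes (vertical, linear) against the summed CPM of neuron markers (horizontal, log axis) in each library, controls in blue and KO in orange. Controls sit between 44.3 and 58.1 CPM of neuron markers, and KO replicate 4, at 9089 CPM, is the highest library for each of the 6 genes. These 6 are a selection, so the shared pattern does not describe the family. For Rab2a, Rab8b, Rab12 and Rab27b, also called higher, and for Rab3a, KO replicate 4 was the lowest KO library.

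Of 3 other GTPases, Rab23 and Rab40c were tested and did not pass with edgeR or DESeq2, though Rab23 had an unadjusted p under 0.05 (14.7 ± 5.21 and 21.5 ± 2.97 CPM, log2 0.75 ± 0.34). Among the 8 partners 7 were tested and 2 were higher (28.6%, beside 21.9% of all genes tested). Rab3gap1, the catalytic subunit of the Rab3 GAP, had 22.6, 11.2, 36.9, 25.6 and 26.8 CPM in controls and 60.6, 51.7, 52.3 and 63.7 CPM in KO (log2 1.08 ± 0.30, edgeR adjusted p = 0.0123). Its call ended without control replicate 4 (edgeR adjusted p = 0.0503) or KO replicate 1 (0.0741). Its non-catalytic subunit Rab3gap2 had 16.4 ± 4.69 and 32.4 ± 7.34 CPM without overlap, and its log2 of 0.77 ± 0.32 missed the threshold (edgeR adjusted p = 0.0646). Rab11fip2, an adaptor that links Rab11 to the motor myosin Vb, had 18.3, 13.5, 18.5, 23.1 and 16.1 CPM in controls and 33.8, 45.8, 52.3 and 50.6 CPM in KO (log2 1.11 ± 0.26, edgeR adjusted p = 0.00414; 0.74 and 0.0579 with 3′ UTR regions alone). The log2 of the other Rab11 adaptors was 0.28 for Rab11fip1, 0.16 for Rab11fip4 and -0.63 for Rab11fip3, and none of these passed.

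The same genes were then summed without the regions that hold a miR-122 match. In that test the library size is the sum over the remaining regions, so a gene with no such region has the same counts but another log2 value; that of Rab2a, for example, was 0.75 in place of 1.01. Of 40 Rab genes tested, 1 was lower, 12 were higher and 27 did not pass. Over all 8430 genes tested, 16.8% were lower and 17.1% were higher. The median log2 was 0.38 for the Rab genes and 0.04 for all genes. Rab43 was no longer called: without its 2 miR-122 regions it had 97.0 ± 22.0 CPM in controls and 89.4 ± 23.8 CPM in KO, which overlapped (log2 -0.34 ± 0.20, edgeR adjusted p = 0.224). Its 2 miR-122 regions alone went from 80.4 ± 24.5 to 5.13 ± 1.76 CPM. Rab1b remained lower (log2 -1.42 ± 0.26, edgeR adjusted p = 0.00141). When regions with a "-B" match were left out as well, an alternative added after seeing the data, its log2 was -0.30 (edgeR adjusted p = 0.580), and no Rab gene was called lower. Rab14, Rab12 and Rab33b were higher with all regions and did not pass in this test. Rab12 and Rab33b hold no match region, so their counts were unchanged and their calls ended with the changed library sizes. For Rab14 the log2 was 0.43 ± 0.16 (edgeR adjusted p = 0.0567, or 0.0317 without the sex term, and DESeq2 adjusted p = 0.0442). The count of higher genes was 7 without control replicate 4, and that of lower genes was 2 without control replicate 5 or KO replicate 2 and 3 without KO replicate 4. Only Rab3a, whose 2 regions both hold a match, had no region left.

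**Figure D4:**
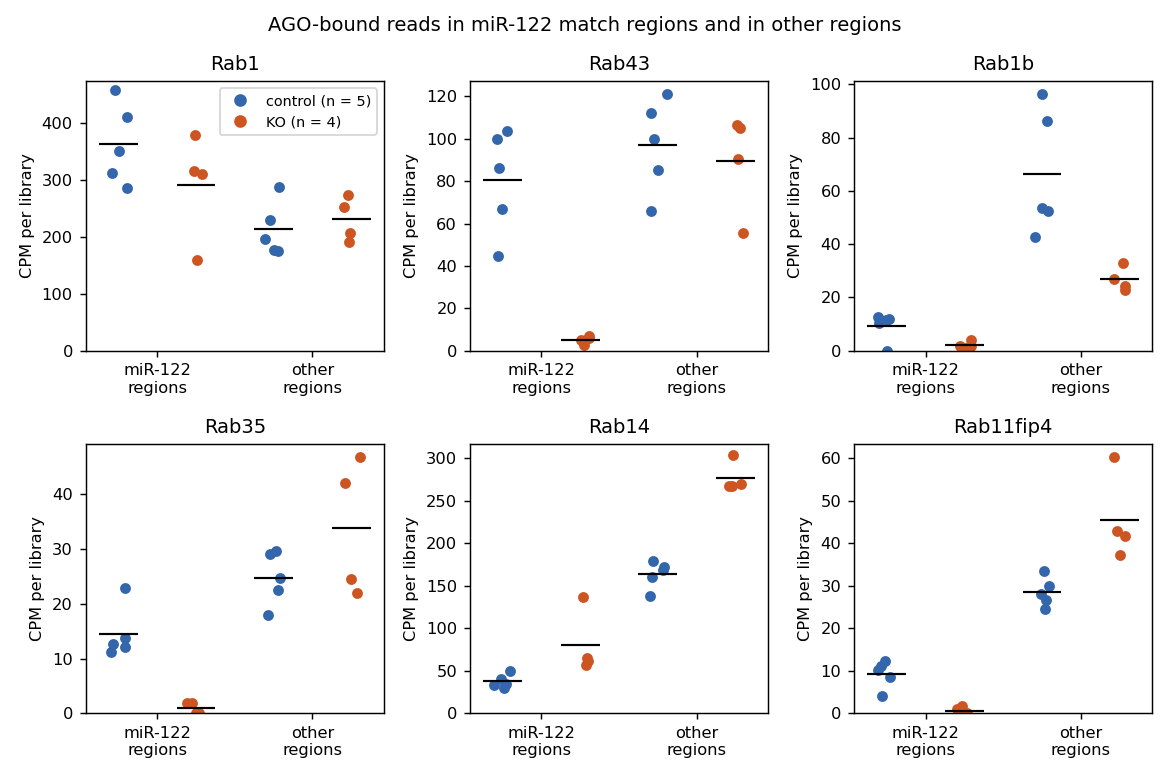
CPM per library (points; bars are means) summed over the miR-122 match regions and over the other regions of 6 Rab genes, controls in blue (n = 5) and KO in orange (n = 4). In Rab43, Rab35 and Rab11fip4 the match regions are nearly empty in KO, while in Rab1 they overlap between groups and in Rab14 every KO library lies above every control.

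Single regions were tested in the same way. Of the 341 Rab regions 57 had enough reads, and 8 were lower and 17 higher in KO, with 32 not passing. Over all 17182 regions tested 27.6% were lower and 17.5% higher. Upper quartile scaling moved the share of higher among all called regions from 38.8% to 49.3%, and the Rab counts to 7 lower and 22 higher. The count of lower Rab regions was 2 without control replicate 3 or 4 (4 without control replicate 1, 5 without control replicate 2, control replicate 5 or KO replicate 3), and that of higher regions was 10 without control replicate 4; fewer regions passed the filter then. Over the whole matrix, 96.7% of tested regions with a miR-122 8mer, 92.6% to 93.7% of those with a 7mer, 81.7% of those with a 6mer and 16.3% of those with no match were lower. Of the 5 tested Rab regions with an 8mer or 7mer 4 were lower. Of the 3 with a 6mer 1 was lower and 2 were higher. The match regions called lower had too few KO reads to pass the filter and were tested through the controls. Any region nearly empty in 1 group passed in this way through the other group. Its direction and p-value therefore lean on the filter, and the shares over the whole matrix rest on the same filter. Regions named below that hold no miR-122-5p match and are not among the 10 with most reads were chosen after their values were seen.

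**Figure D5:**
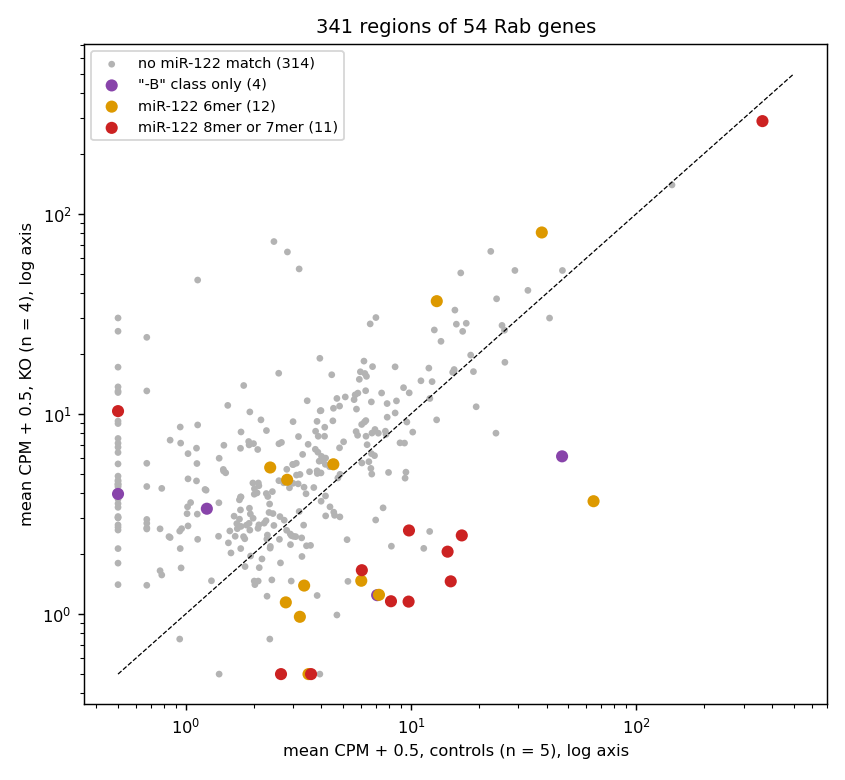
Mean CPM + 0.5 in controls (horizontal, n = 5) and KO (vertical, n = 4) of the 341 Rab regions on log axes, coloured by miR-122 match; the dashed line marks equal levels. Of 11 regions with an 8mer or 7mer, 10 lie below the line, and the red point at the upper right is the CDS region of Rab1 at 363 and 290 CPM.

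Among the tested Rab regions the lowest log2 was in Rab43. A 3′ UTR region at chr6:87789944-87790013 (mm10, minus strand), with a 6mer, had 77.5, 33.6, 90.6, 59.8 and 59.1 CPM in controls and 0.994, 4.87, 1.87 and 4.90 CPM in KO (log2 -4.45 ± 0.49, edgeR adjusted p = 1.53e-06). An intron region of the same gene with the 8mer, at chr6:87799042-87799111, went from 16.3 ± 7.85 to 1.97 ± 2.70 CPM (log2 -2.91 ± 0.64, edgeR adjusted p = 0.00116). The other 4 tested regions of Rab43, in its 3′ UTR and CDS, had log2 values between -0.21 and 0.42, and none passed. The loss in Rab43 thus lay in the 2 match regions.

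Rab35 carries a 7mer in its 3′ UTR at chr5:115646183-115646252 (plus strand). That region had 12.7, 11.2, 22.9, 13.7 and 12.1 CPM in controls and 0, 1.95, 1.87 and 0 CPM in KO (log2 -3.69 ± 0.67, edgeR adjusted p = 0.000239). Its CDS region at chr5:115640056-115640125 had 13.1 ± 7.02 and 22.5 ± 8.51 CPM and did not pass. The whole-gene value of Rab35 therefore joins a region that fell and others that did not.

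Rab3a has 2 regions, which moved in opposite directions. The 5′ UTR region at chr8:70755961-70756030 (plus strand), with a 7mer and a "-B" match, had 8.46, 20.2, 13.2, 16.2 and 12.1 CPM in controls and 1.99, 0, 0.934 and 3.27 CPM in KO (log2 -3.27 ± 0.65, edgeR adjusted p = 0.000538). The 3′ UTR region at chr8:70758477-70758615, with a 6mer, had 9.87, 6.73, 14.95, 16.2 and 14.8 CPM in controls and 43.7, 28.3, 49.5 and 22.9 CPM in KO (log2 1.38 ± 0.34, edgeR adjusted p = 0.00286; 1.11 and 0.0583 without KO replicate 1). The groups did not overlap in either region, and the gene sum overlapped.

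Rab1b lost reads in a 7mer region of its 3′ UTR and in a "-B" region of its CDS. The former, at chr19:5099858-5099927 (minus strand), had 12.7, 0, 11.4, 10.3 and 12.1 CPM in controls and 3.97, 0.975, 1.87 and 1.63 CPM in KO (log2 -2.19 ± 0.69, edgeR adjusted p = 0.0152), a call that ended without KO replicate 2 or 3. The latter, at chr19:5105187-5105256, had 39.5, 87.5, 58.0, 23.9 and 22.8 CPM in controls and 4.97, 6.82, 7.47 and 3.27 CPM in KO (log2 -2.58 ± 0.44, edgeR adjusted p = 0.000127). In the control mean it held more reads than the other regions of the gene together.

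In Rab1 the region with most reads of any Rab gene holds a 7mer for miR-122 beside matches for miR-15 and miR-103. It lies at the end of the CDS at chr11:20224729-20224842 (plus strand). It had 350, 285, 312, 410 and 458 CPM in controls and 378, 309, 316 and 158 CPM in KO, which overlapped (log2 -0.42 ± 0.25, edgeR adjusted p = 0.185). It passed as lower without KO replicate 1 (log2 -0.76, edgeR adjusted p = 0.0459). The next region, at the start of the 3′ UTR at chr11:20224896-20224965, with matches for miR-101 and miR-130, had 144 ± 37.9 and 139 ± 38.0 CPM. Another region of the 3′ UTR without a listed match, at chr11:20225258-20225364, was higher in KO (15.2 ± 3.02 and 32.5 ± 5.93 CPM, log2 0.98 ± 0.30, edgeR adjusted p = 0.0145), and its call ended without control replicate 4 or KO replicate 1.

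The other miR-122 regions had too few reads for the test. A CDS region of Rab11fip4 with a 7mer had 9.25 ± 3.25 CPM in controls and 0.652 ± 0.799 CPM in KO, and a CDS region of Rab11fip1 with a 7mer had 7.65 ± 3.42 and 0.657 ± 0.802 CPM; in both all KO libraries were below all controls. An intron region of Rab32 with a 7mer had 3.10 ± 1.28 CPM in controls and no KO read, which is at least 3.84-fold lower. The 7mer region in the 3′ UTR of Rab3c had no control read and 4.97, 5.85, 5.60 and 22.9 CPM in KO. Over all 23 match regions, tested or not, the KO mean was below the control mean in 10 of 11 with an 8mer or 7mer and in 7 of 12 with a 6mer. Among the 314 Rab regions with neither a regular nor a "-B" match the KO mean was below the control mean in 66 and above it in 248. The same split was not counted over all genes, whose sum without match regions also rose (ratio 1.13). In the fit without a filter the median log2 over all regions was 0.25, and 213 of the 341 Rab regions lay above it.

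Over the whole matrix, 14545 tested regions held no miR-122-5p match, of which 2376 were lower (16.3%) and 2973 higher. Of the 49 such regions in Rab genes, 3 were lower (6.12%) and 15 higher (30.6%). The lower ones were the "-B" region of Rab1b, a CDS region of Rab10 at chr12:3252611-3252680 (11.6 ± 6.16 and 2.08 ± 1.18 CPM, log2 -2.46 ± 0.67, edgeR adjusted p = 0.00601) and a 3′ UTR region of Rab30 at chr7:92836136-92836205 (23.3 ± 12.2 and 7.51 ± 2.99 CPM, log2 -1.35 ± 0.49, edgeR adjusted p = 0.0351). Those of Rab10 and Rab30 hold matches for miR-122-3p, the other strand of the miR-122 hairpin. A miR-122-3p match lay in 7 Rab regions, 2 of which were tested; in the other 5 the KO mean was above the control mean. The Rab30 call ended without control replicate 1, 3 or 4 or KO replicate 1 or 3, and its log2 was -0.67 without KO replicate 1.

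Most regions that gained reads were in 3′ UTRs. Of 30 tested 3′ UTR regions without a miR-122-5p match 13 were higher (43.3%), and of 19 such CDS regions 2 were higher (10.5%). Over the tested regions of all genes without that match, 30.3% were higher in 3′ UTRs and 9.20% in CDS. In Rab6a, 3 regions of the 3′ UTR rose together: chr7:100639332-100639401 had 2.33 ± 1.68 and 64.0 ± 45.7 CPM, chr7:100639411-100639480 had 2.69 ± 2.57 and 52.5 ± 33.6 CPM, and chr7:100641020-100641157 had 0.629 ± 0.615 and 46.2 ± 36.9 CPM. KO replicate 4 was highest in each, at 2.88 to 3.64 times the other KO libraries. In Rab10 the region at chr12:3249549-3249683 had 1.41, 0, 3.52, 0.855 and 4.03 CPM in controls and 47.7, 37.0, 57.0 and 147 CPM in KO (log2 4.78 ± 0.65, edgeR adjusted p = 1.43e-05). It lies over Rab10os, and KO replicate 4 stood at 3.11 times the other KO libraries, beside 3.63 times for the neuron markers; their part was not tested. These regions of Rab6a and Rab10 had too few control reads to pass the filter. They were tested only through the KO libraries, so their direction and p-values are no separate support for a rise.

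The 3′ UTR region of Rab11a at chr9:64716563-64716632, with a 7mer for miR-30, had 19.7, 26.9, 16.7, 35.0 and 12.1 CPM in controls and 59.6, 62.4, 71.9 and 63.7 CPM in KO (log2 1.42 ± 0.31, edgeR adjusted p = 0.00117), and KO replicate 4 stood at 0.985 times the other KO libraries. Of 18 Rab regions with a miR-30 match and none for miR-122, 5 were tested and this was the 1 that passed. The Rab2a region at chr4:8606633-8606819 had 7.05, 2.24, 6.16, 10.3 and 6.71 CPM in controls and 27.8, 30.2, 38.3 and 22.9 CPM in KO (log2 1.93 ± 0.36, edgeR adjusted p = 0.000290). In Rab14 the distal 3′ UTR region at chr2:35180318-35180436, with an 8mer for miR-25, had 16.1 ± 2.81 and 50.1 ± 14.9 CPM (log2 1.49 ± 0.34, edgeR adjusted p = 0.00177). The region nearer the CDS with a miR-122 6mer at chr2:35181377-35181506 had 37.6 ± 7.58 and 80.2 ± 38.2 CPM (log2 1.04 ± 0.39, edgeR adjusted p = 0.0360), with 137 CPM in KO replicate 4, and 0.61 (edgeR adjusted p = 0.0741) without it. Its call also ended without control replicate 3, 4 or 5. The neighbouring region at chr2:35181297-35181366, with matches for miR-130, miR-148 and miR-19, had 40.7 ± 5.22 and 29.6 ± 1.85 CPM. That region had lower values in every KO library than in every control, but its log2 of -0.46 ± 0.28 did not pass.

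The share of Rab reads that lay in 3′ UTRs was 52.2% ± 1.41 in controls and 68.1% ± 6.22 in KO, and the share in CDS was 41.7% ± 1.93 and 27.9% ± 6.78. Over all protein-coding genes the shares moved the same way, 35.4% ± 1.72 and 47.4% ± 1.08 in 3′ UTRs and 48.0% ± 1.40 and 36.5% ± 4.00 in CDS.

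Genes that load, activate, switch off or read Rab proteins were given by lists of names. Of 8 prenylation and recycling genes 5 were tested: Chm, the escort protein that presents new Rabs for prenylation, was lower (24.5 ± 5.31 and 11.4 ± 2.96 CPM, log2 -1.32 ± 0.30, edgeR adjusted p = 0.00332), and the other 4 did not pass. Of 31 exchange factor genes 26 were tested, 7 were lower (26.9%) and 2 higher (7.69%), beside 23.3% lower and 21.9% higher over all genes tested. The lower ones included Dennd1b, a GEF for Rab35 (320 ± 68.7 and 118 ± 17.6 CPM, log2 -1.61 ± 0.19), Trappc3, a core subunit of the TRAPP complex that activates Rab1 (36.0 ± 20.6 and 5.86 ± 2.82 CPM, log2 -2.74 ± 0.55), and Gapvd1, a GEF for Rab5 (log2 -1.04 ± 0.19). Rin2, another GEF for Rab5, was higher (53.9 ± 7.42 and 108 ± 24.8 CPM, log2 0.94 ± 0.17).

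Of 22 GAP genes tested 6 were lower (27.3%) and 4 higher (18.2%), shares near those of all genes. Tbc1d16 (70.8 ± 14.4 and 9.44 ± 5.00 CPM, log2 -2.88 ± 0.31) and Tbc1d20, a GAP for Rab1 (89.4 ± 13.2 and 28.0 ± 3.28 CPM, log2 -1.82 ± 0.23), were among the lower ones. Tbc1d9 was higher (10.3 ± 5.88 and 71.1 ± 11.6 CPM, log2 2.70 ± 0.36), and Sgsm1, also called higher, had no control read and passed the filter only through the KO libraries. Of 21 effector genes tested 1 was lower (4.76%) and 8 were higher (38.1%). Of those 8, Rims1 and Rph3a had no control read, so the filter fixed their direction, and without them 6 of 19 were higher. The lower gene was Myo5b, the myosin motor of Rab11 recycling endosomes (100.4 ± 25.04 and 37.6 ± 10.7 CPM, log2 -1.29 ± 0.21), and the higher ones included its relative Myo5a (2.14 ± 1.33 and 158 ± 117 CPM) and the synaptic Rab3 effectors Rims1, Rims2 and Rph3a. KO replicate 4 stood at 2.96 to 3.73 times the other KO libraries for Myo5a, Rims1, Rims2 and Rph3a, beside 3.63 times for the neuron markers. For the effectors Bicd2 (log2 1.00 ± 0.24) and Ocrl (log2 1.98 ± 0.48), also higher, it stood at 0.707 and 0.766 times.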

How the data were processed

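AGO CLIP-seq was measured in 9 mouse livers. Bowtie2 and mm10 appear in the submitters' processing notes; their versions, the peak caller, the treatment of duplicates and how reads were counted were not found in the sources used here. The deposited values were raw read counts per peak, per the file headers. The authors also deposited a log2 fold change per peak and a phyloP conservation score per seed match, with formula unstated; neither is printed. Each peak was taken once and counts were summed per gene. Testing used edgeR 4.0.16 in R 4.3.3 with TMM, filterByExpr and the quasi-likelihood test, genotype and sex as terms and Benjamini-Hochberg adjustment over all rows tested (threshold 0.05). CPM use the library total, and fold changes the TMM model. The code was tested on simulated data. A floor of 3 counts is 2.56 to 6.73 CPM in 1 library; intervals and floors cover counting error only. Replicates differed beyond counting noise (2.67 to 10.6 in chi-square over its degrees of freedom). All 54 genes matched RefSeq; 337 of 341 regions lay inside the named gene and 26 over another.

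The members and lists were chosen with earlier results of these data known. Per-library values were given for genes with a tested miR-122 8mer or 7mer region, the 10 genes of highest mean CPM, up to 15 called genes of smallest p, and Rab3a, Rab3c and Rab6b; other members are named by role. Named regions were tested ones with a miR-122 match and the 10 of highest mean CPM. Per-library values of Rab9b, Rab3d, Rab12 and Rab30, and regions outside that rule, were chosen after their values were seen. Alternatives were DESeq2 1.42.0, other scalings, no filter, no sex term, region subsets, a replicate block and leaving out each library. Same-numbered mice did not deviate together over all genes, but this cannot exclude that the numbers pair mice. For most replicate numbers the mouse ids of control and KO are consecutive, and whether that means a pairing is not given.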

Additional observations from a re-analysis of the deposited data

Results flagged for a closer look

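In the per-library CPM of 27 named Rab genes, 54 groups of 4 or 5 libraries were searched for a library that stood far from the rest of its group, and 6 were found; chance alone gives about 1 in 20 for normally distributed values, a rate that need not hold for the near-0 counts of Rab3c and Rab33b. KO replicate 4 was far above the other KO libraries for Rab6a (369 CPM) and far below them for Rab12 (50.6 CPM). KO replicate 3 was highest for Rab11a (93.4 CPM), and KO replicate 2 was highest for Rab30 (39.0 CPM). Among controls, replicate 2 had no read for Rab33b (0 CPM), and replicate 4 was the control with reads for Rab3c (1.71 CPM, from 2 reads).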

How the results depend on the processing

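The calls of Rab43, Rab2a, Rab11a, Rab8b and Rab6a with all regions kept direction and side of the threshold in each alternative run for them. Leaving out each library in turn gave 2 to 3 Rab genes lower, 11 to 16 higher and 3095 to 4496 genes called in all; without miR-122 regions 1 to 3, 7 to 14 and 2091 to 3345; for regions 2 to 10, 10 to 22 and 5205 to 9699. Without miR-122 regions, 2 Rab genes were lower with no filter, with no sex term or when 8mer and 7mer regions alone were left out, and 0 when "-B" regions were left out too. With no filter on low counts 21743 regions were called, 20 Rab regions lower and 60 higher. With 3′ UTR regions alone 2067 genes were called. The replicate number as a block gave 2624 genes called (1778 without miR-122 regions, with 5 Rab genes higher) and 5 Rab regions lower. With it, the calls with all regions ended for Rab1b (edgeR adjusted p = 0.0844), Rab5a (0.0667), Rab11fip2 (0.0671), Rab12 (0.480), Rab27b (0.0883) and Rab33b (0.50). Rab30 was then called lower (log2 -1.44, edgeR adjusted p = 0.0379). The calls of the Rab3a regions ended too (0.176 in the 5′ UTR, 0.0633 in the 3′ UTR). The correlations of same-numbered mice were -0.033, -0.0026, -0.090 and 0.015. Values that changed sign had not passed any test in the main setting or after the change. Rab35 without its miR-122 region, at -0.010 log2, was 0.0103 with upper quartile scaling, 0.0185 with TMM from other rows, 0.0217 with DESeq2, 0.114 without the sex term, 0.0298 with the block, 0.0717 with 6mer regions kept, 0.0184 with "-B" regions left out, and -0.261 to 0.367 without a library; with all regions it was -0.658 to 0.0238 without a library. Rab27a without miR-122 regions was -0.0376 to 0.872 without a library. The Rab1 region at the start of the 3′ UTR was 0.0925 with upper quartile scaling, 0.0694 with the block and -0.543 to 0.128 without a library, and the Rab18 region with most reads was 0.230 with upper quartile scaling, 0.0166 with DESeq2, 0.101 without the sex term and -0.205 to 0.258 without a library. The cause was not tested. At this depth 284 of 341 Rab regions had too few reads for the test.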
